A study of Homo sapiens with 46 samples.

Results

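De novo nucleotide synthesis was followed through 10 genes after loss of Ku, the Ku70/Ku80 dimer that binds broken DNA ends. CAD, DHODH, UMPS and CTPS1 make up the pyrimidine branch, and PPAT, GART, PFAS, PAICS, ADSL and ATIC the purine branch. The genes were taken by symbol, and all 10 were found among the 61228 genes of the HCT116 table and the 30160 genes of the HEK293 table. CAD was chosen by its log2 difference between the 1-day IAA and 1-day DMSO libraries of the Ku80 degron set, where it was low, so every value of that contrast is a description and carries no test. CAD joins the enzymes that open pyrimidine synthesis in a single protein, DHODH oxidises the ring in the inner mitochondrial membrane, UMPS completes UMP, and CTPS1 turns UTP into CTP. PPAT commits phosphoribosyl pyrophosphate (PRPP) to purines, and GART, PFAS, PAICS, ADSL and ATIC build the ring up to inosine monophosphate. The pathway supplies RNA and DNA synthesis in growing tumour cells, and MYC is known as an activator of CAD and of several purine genes in other settings.

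RNA was sequenced in 46 libraries, 40 from the HCT116 colon carcinoma line and 6 from the HEK293 embryonic kidney line. The largest set used HCT116 clones in which Ku80 carries an auxin-inducible degron (Ku80-AID). Clones 1, 7 and 9 received 100 µM indole-3-acetic acid (IAA) together with 0.5 µg/mL doxycycline for 2, 4 or 6 days, and clones 1 and 9 for 1 day. Their controls received DMSO for 2 days (clones 1, 7 and 9) or 1 day (clones 1 and 9), and the 2-day DMSO libraries were the control for 2, 4 and 6 days alike. The same clones were treated with a CDK4/6 inhibitor (CDKi) plus IAA, or with the inhibitor alone, for 4 days (3 clones) or 2 days (clones 1 and 9). Ku80-AID clones that also lack MAVS, the adaptor of cytosolic RNA sensing (MAVS-/- clones 1, 13 and 15), received IAA or DMSO for 4 days. In another HCT116 system, Ku86Flox/-:CreERT2 cells received 50 nM 4-hydroxytamoxifen (4OHT) or ethanol (EtOH) for 4 days, and Ku86Flox/- cells without Cre received the same agents, with 2 libraries per group. In HEK293 Ku70-/- cells (clones SB, Sa11 and TI), an ectopic Ku70 is switched on by doxycycline. They were sampled 8 days after doxycycline withdrawal or with 1 µg/mL doxycycline. IAA was always given with doxycycline and DMSO without it, so Ku80 loss, IAA and doxycycline cannot be told apart in the degron set, nor Ku70 loss and doxycycline withdrawal in HEK293. In the Cre set Ku80 loss and Cre activity cannot be told apart either. At 4 and 6 days of IAA and 4 days of CDKi alone, days in culture differ from the 2-day DMSO control too, and cannot be told apart from the treatment. The degron acts on the protein, so the RNA of XRCC5, which encodes Ku80, is no check of depletion there.

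Library totals were 9.53 to 45.7 M estimated counts in the degron set, 13 to 17.6 M in the Cre set and 19.6 to 28.5 M in HEK293. XRCC5 averaged 27.8 ± 4.12 TMM-scaled CPM (counts scaled to library size) in 4OHT-treated Cre cells and 257 ± 1.49 CPM in EtOH-treated ones (SD, n = 2 each), and XRCC6, which encodes Ku70, averaged 454 ± 137 CPM without doxycycline and 3006 ± 657 CPM with it (SD, n = 3 each). Of 12 colon epithelial markers, 6 exceeded 1 TPM (abundance scaled to transcript length and library size) in every degron library, while CDX1 was at 0 and CEACAM5 and GPA33 were below 1 TPM. The 8 libraries of the 1-day groups and the 2-day CDKi groups stood apart from the rest, and their names give time in hours where the others give days. CDKi alone for 2 days differed from 2-day DMSO in 6494 genes but from 1-day DMSO in 686, while CDKi alone for 4 days differed from 2-day DMSO in 1451 genes and from 1-day DMSO in 8107 (edgeR, adjusted p below 0.05). For the members, CDKi alone for 2 days against DMSO, which crosses that divide, is therefore given with both controls. MYC with CDKi, and the 2-day difference between IAA responses with and without CDKi, are given with 2-day DMSO only. In these bulk libraries fewer cells of a type and less RNA per cell cannot be told apart.

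The promoters of 9 members were found in the RefSeq table (GRCh38.p14), as windows from 250 bases before to 50 bases after the start of transcription. ADSL was not matched. The E-box CACGTG, the letters bound by MYC with MAX, was searched on both strands, and it reads the same on each. It occurred in windows of 4 of these 9 genes, against 8.78% of the 27305 genes in the table. The windows of 4 members are shown because they set CAD, which has no CACGTG within its window, beside members that do. Bases beyond the windows were not searched, so a CACGTG further from the start of CAD would be missed. CACGTG is in capitals and all other bases in lower case.
CAD, chr2:27217119-27217418, plus strand: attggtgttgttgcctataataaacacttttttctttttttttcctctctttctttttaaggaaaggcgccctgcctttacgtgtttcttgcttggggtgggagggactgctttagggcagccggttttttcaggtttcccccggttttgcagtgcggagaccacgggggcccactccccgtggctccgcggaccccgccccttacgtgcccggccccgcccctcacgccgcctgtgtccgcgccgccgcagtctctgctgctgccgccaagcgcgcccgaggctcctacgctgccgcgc
DHODH, chr16:72008494-72008793, plus strand: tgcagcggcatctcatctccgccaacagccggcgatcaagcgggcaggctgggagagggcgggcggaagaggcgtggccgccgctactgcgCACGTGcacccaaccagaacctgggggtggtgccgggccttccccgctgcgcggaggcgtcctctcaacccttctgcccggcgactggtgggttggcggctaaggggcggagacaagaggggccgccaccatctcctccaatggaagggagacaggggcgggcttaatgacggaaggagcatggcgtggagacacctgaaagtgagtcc
PPAT, chr4:56435566-56435865, minus strand: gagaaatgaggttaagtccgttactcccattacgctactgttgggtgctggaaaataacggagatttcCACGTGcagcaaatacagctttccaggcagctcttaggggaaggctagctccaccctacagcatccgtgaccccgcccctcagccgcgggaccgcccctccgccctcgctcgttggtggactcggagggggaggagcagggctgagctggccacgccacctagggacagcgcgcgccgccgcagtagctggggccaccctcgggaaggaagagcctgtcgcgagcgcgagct
ATIC, chr2:215311809-215312108, plus strand: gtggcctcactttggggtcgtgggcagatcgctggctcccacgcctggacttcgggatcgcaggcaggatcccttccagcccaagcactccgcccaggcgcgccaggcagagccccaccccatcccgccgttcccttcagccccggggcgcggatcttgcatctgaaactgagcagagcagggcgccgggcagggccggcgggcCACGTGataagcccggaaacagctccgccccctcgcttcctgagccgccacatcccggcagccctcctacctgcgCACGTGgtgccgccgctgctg
Counting from the first transcribed base, the motif starts at -159 in DHODH, at -182 in PPAT, and at -46 and 29 in ATIC. The PPAT motif is also the PAICS motif, at 40 in the PAICS window, since these genes are divergent neighbours whose start sites lie 126 bases apart in GENCODE release 29 and whose windows share 236 bases. CCAAT, searched on both strands, was found in CAD, DHODH and GART, against 39.7% of genes. The E2F letters TTTCGCGC or TTTGGCGC, searched on both strands, were found in 1 GART window, against 1.40% of genes. No binding was measured, and a match is a description of the letters only.

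In degron cells given DMSO, the purine genes except PFAS had the highest mean RNA levels per length, while PFAS stood below 3 of the pyrimidine genes. PAICS stood at 318 ± 26.5 TPM and GART at 254 ± 12.5 TPM in the 2-day DMSO libraries (SD, n = 3). ATIC (138 ± 4.90 TPM), ADSL (118 ± 5.46 TPM) and PPAT (95.3 ± 5.03 TPM) followed. CAD had 85.6 ± 12.4 TPM, CTPS1 80.7 ± 8.92 TPM, UMPS 49.4 ± 9.14 TPM, PFAS 41.2 ± 6.27 TPM and DHODH 14.9 ± 2.41 TPM. The library ranges of PPAT and CAD overlapped, as did those of CAD and CTPS1 and of UMPS and PFAS, so the order within these pairs was not larger than the spread between libraries. All 10 genes passed the filter on low counts in every system. GART overlaps SON and PFAS overlaps CTC1 on the opposite strand, and UMPS, PPAT and ADSL overlap transcripts there that carry clone names. On the same strand ADSL overlaps SGSM3 and AL022238.4, GART overlaps BTF3P6 and UMPS overlaps MIR544B. PAICS and PPAT have annotated genes named as their pseudogenes. The counts of all these members are less certain than those of CAD, which spans 27217390 to 27243943 on chromosome 2 with no overlapping gene.

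After 1 day of IAA, CAD was the lowest of the 10 relative to its control. It had 124.4 and 137.2 CPM in the IAA libraries of clones 1 and 9, against 244.7 and 263.9 CPM in their DMSO libraries. CPM values compare 1 gene between libraries of the same system, not genes with each other. The difference was -0.96 ± 0.14 on the log2 scale (estimate ± SE). The next was DHODH, at 19.26 and 20.79 CPM with IAA, against 33.23 and 30.04 CPM with DMSO, a log2 difference of -0.66. ADSL followed at -0.61 and PFAS at -0.47, and UMPS was closest to its control at -0.18. All 10 members had non-overlapping groups at 1 day, as did 52.9% of all genes with these 2 libraries a side, and 0.0689% of genes were called lower by edgeR.

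**Figure D1:**
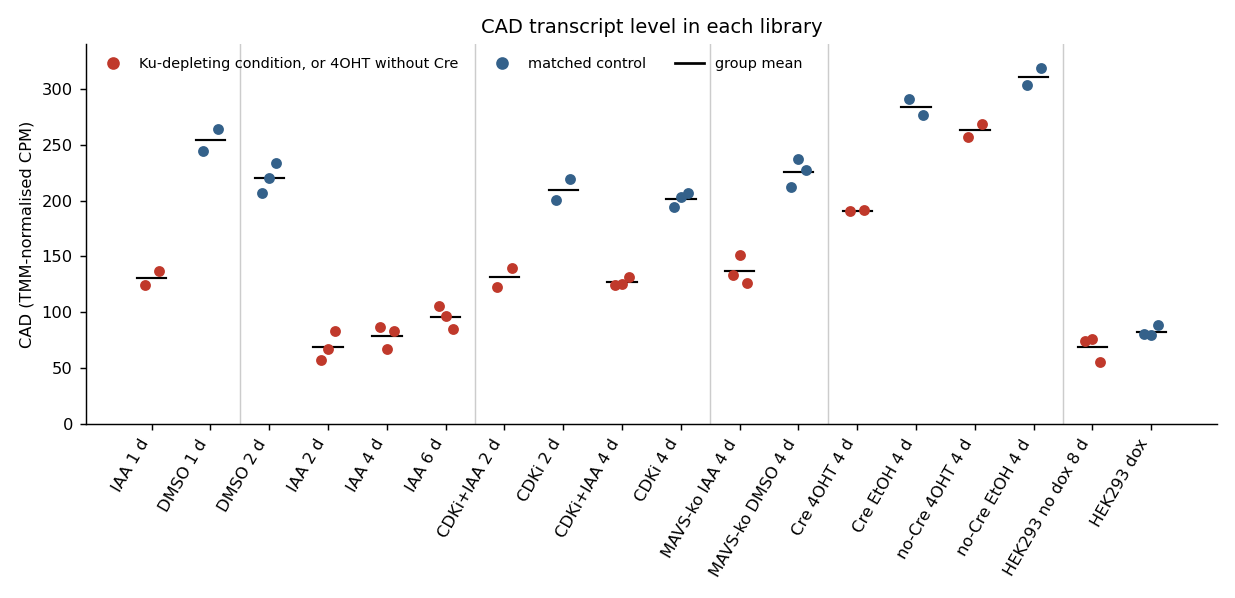
CAD in TMM-scaled CPM (vertical axis, from 0) in every library, 1 point each, with black bars for group means; red marks Ku-depleting conditions and 4OHT without Cre, blue the matched controls. The 19 degron libraries with IAA lie between 56.96 and 151.7 CPM, below the 13 without it, whose lowest is 194.6 CPM. This is a description, since CAD was chosen for low values with IAA, and the share of all genes with this split was not counted.

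After 2 days of IAA all 10 genes fell, in a comparison in which 9.94% of all genes were called lower. CAD had 56.96, 66.82 and 82.92 CPM in the IAA libraries of clones 1, 7 and 9, against 206.6, 220.0 and 233.6 CPM in the DMSO libraries. Every IAA library was below every DMSO library, and the log2 change was -1.68 ± 0.12 (edgeR adjusted p = 5.6e-10). DHODH fell by 0.84 ± 0.18 on the log2 scale (edgeR adjusted p = 0.00114), UMPS by 0.65 ± 0.15 (adjusted p = 0.00309) and CTPS1 by 1.04 ± 0.13 (adjusted p = 4e-06). Among the purine genes PAICS, whose enzyme carries out a carboxylation and the next ligation, had 188.8, 228.3 and 214.2 CPM with IAA, against 459.0, 512.2 and 507.3 CPM with DMSO. Its log2 change was -1.23 ± 0.12 (edgeR adjusted p = 7.27e-08). PFAS fell by 1.14 ± 0.15 on the log2 scale, ADSL by 0.98 ± 0.15, PPAT by 0.97 ± 0.18, ATIC by 0.75 ± 0.11 and GART by 0.62 ± 0.14, with edgeR adjusted p-values from 4.59e-06 (PFAS) to 0.00258 (GART). The median change of the 10 was -0.97 on the log2 scale, beside 0.00 over all genes tested. All 10 had groups that did not overlap, as did 40.4% of all genes. With the 1-day DMSO libraries as the control, which served in choosing CAD and carry names in hours, the other 9 members were also called lower, beside 27.9% of all genes.

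After 4 days of IAA all 10 were again called lower, with the largest changes in PAICS and CAD (14.9% of all genes were called lower). The control is 2-day DMSO here and at 6 days, so days in culture differ as well as IAA. PAICS had 142.5, 182.6 and 192.5 CPM with IAA in clones 1, 7 and 9, against the same 2-day DMSO values, and its log2 change was -1.51 ± 0.12 (edgeR adjusted p = 2.69e-10). CAD had 87.24, 67.52 and 82.89 CPM, a log2 change of -1.47 ± 0.12 (edgeR adjusted p = 4.92e-10). ADSL, whose enzyme releases fumarate in purine synthesis, had 42.37, 48.18 and 58.81 CPM, against 111.8, 112.9 and 126.5 CPM with DMSO. Its log2 change was -1.24 ± 0.15 (edgeR adjusted p = 5.93e-07), and its groups did not overlap. The remaining members fell by 1.08 (PFAS), 0.92 (CTPS1), 0.90 (PPAT), 0.87 (UMPS), 0.82 (DHODH), 0.72 (ATIC) and 0.57 (GART) on the log2 scale, with edgeR adjusted p-values of 0.00266 or lower. PPAT, which shares its promoter region with PAICS, was the least even of them, with 53.24 CPM in clone 1, 93.83 CPM in clone 7 and 101.9 CPM in clone 9. GART, the smallest change, had 205.0, 222.5 and 276.3 CPM with IAA, against 353.3, 356.0 and 336.0 CPM with DMSO, and its groups did not overlap. The median of the 10 was -0.91, beside 0.04 over all genes, and 10 of 10 had separate ranges, as did 36.2% of all genes. No member differed between 4 and 2 days of IAA by edgeR (8.17% of all genes were called either way), and 1 had an unadjusted p below 0.05, PAICS at -0.29 (unadjusted p = 0.0199). On the log2(TPM + 1) scale limma called PAICS (-0.62) and PFAS (-1.05) lower at 4 days, where PFAS stood at 0.06 in edgeR.

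After 6 days of IAA 8 of the 10 were called lower than 2-day DMSO, beside 17.5% of all genes. CAD had 106.0, 97.11 and 85.03 CPM in clones 1, 7 and 9, all below the DMSO libraries, and 9 of 10 members had separate ranges, as did 39.8% of all genes. Its log2 change was -1.20 ± 0.12 (edgeR adjusted p = 1.04e-08). PAICS stood at -1.16 and PFAS at -0.88. UMPS, which ends the pathway to UMP, had 46.83, 37.23 and 37.77 CPM, against 44.65, 49.94 and 49.65 CPM with DMSO, so that its groups overlapped. Its log2 difference was -0.24 ± 0.15 (edgeR adjusted p = 0.223), and that of GART was -0.32 ± 0.14 (adjusted p = 0.082). DHODH was called at -0.44 ± 0.17 with an edgeR adjusted p of 0.0496. With the 1-day DMSO libraries as the control, across the divide between libraries named in hours and in days, UMPS (-0.97) and GART (-0.42) were called lower too, beside 29.1% of all genes, while on the log2(TPM + 1) scale UMPS stood at 0.39 in limma. Set directly against 4 days, 4 members were higher at 6 days, beside 5.36% of all genes: UMPS at 0.63 ± 0.15 (edgeR adjusted p = 0.00836), ADSL at 0.57 ± 0.15 (adjusted p = 0.0155), PAICS at 0.36 ± 0.12 (adjusted p = 0.041) and CTPS1 at 0.39 ± 0.13 (adjusted p = 0.0497). These 4 calls depended on single libraries: 0 were made without the 6-day library of clone 1, 1 without the 4-day library of clone 7 and 2 without the 6-day library of clone 9. With only the compared groups in the model 0 were made.

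**Figure D2:**
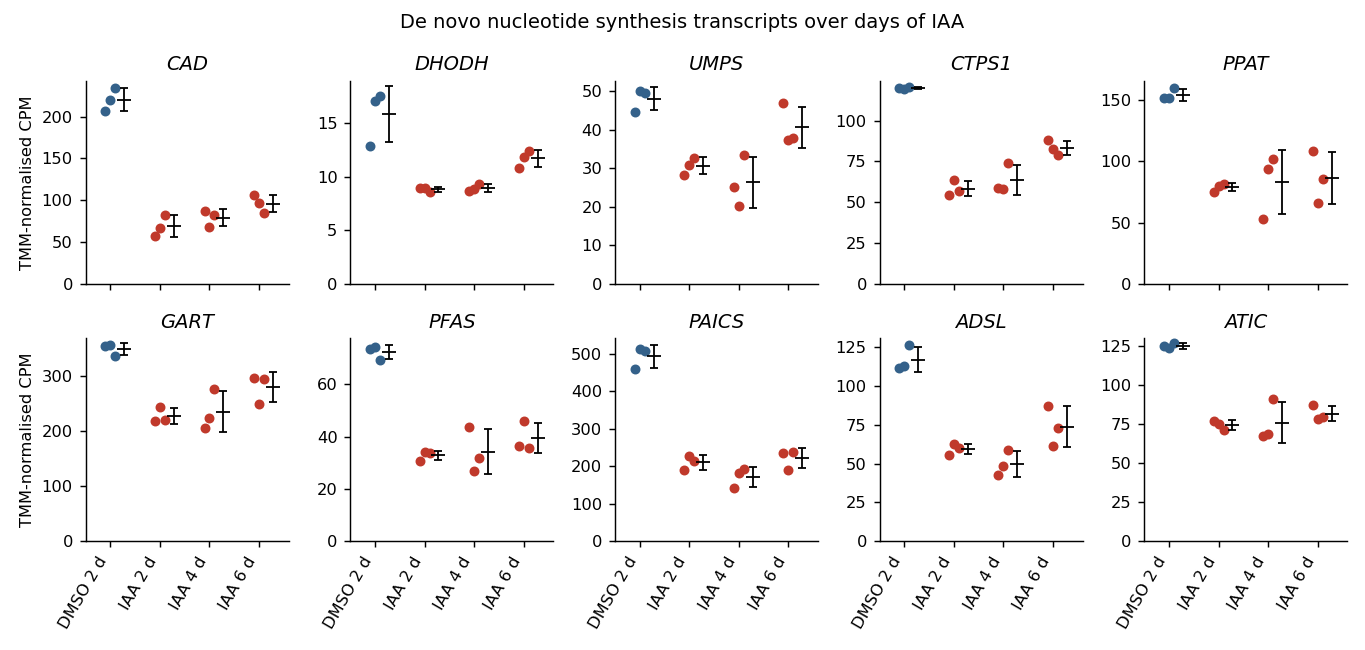
TMM-scaled CPM of each gene (vertical axes, from 0, a scale for each gene) in the 2-day DMSO libraries (blue) and after 2, 4 and 6 days of IAA (red), 1 point per clone, with mean ± SD in black (n = 3). CAD and PAICS stay far below DMSO throughout, whereas the 6-day points of UMPS reach into the DMSO range.

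The enzymes around the pathway moved with it at 4 days of IAA, against 2-day DMSO, in most lists but not all. Of 10 genes of PRPP supply and of the branch enzymes (those beyond inosine monophosphate and CTPS2, the other CTP synthase), 7 fell and 0 rose (median -0.49). PRPS1, which makes PRPP, was at -1.51 ± 0.16, and IMPDH2, which opens the guanine branch, at -0.67 ± 0.10 (edgeR adjusted p below 0.05). Of 9 deoxynucleotide genes 6 fell and 2 rose (median -1.42), with RRM2 of ribonucleotide reductase at -1.92 ± 0.20 and TYMS, which makes thymidylate, at -1.78 ± 0.17. Of 11 folate one-carbon genes 7 fell and 1 rose (median -0.86), led by mitochondrial MTHFD2 at -1.82 ± 0.16 and cytosolic MTHFD1 at -1.47 ± 0.11. All 7 electron chain partners of DHODH fell (median -0.60). Salvage did not share a direction: of 21 genes 6 rose and 4 fell (median 0.11), with NT5E, an ecto-nucleotidase, at 2.54 ± 0.22 and TK1, the S-phase thymidine kinase, at -2.08 ± 0.14. Of 11 nucleotide kinases 5 fell and 1 rose, and CTPS2 of the list above fell by 0.51 ± 0.17 (edgeR adjusted p = 0.0212). All 16 proliferation genes fell (median -1.72), and so did 7 of 12 common reference genes while 3 rose (median -0.56); the part of either in the members' change was not tested. The lists were drawn up with earlier results of these data known, and 14.9% of all genes were called lower and 17.9% higher here.

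**Figure D3:**
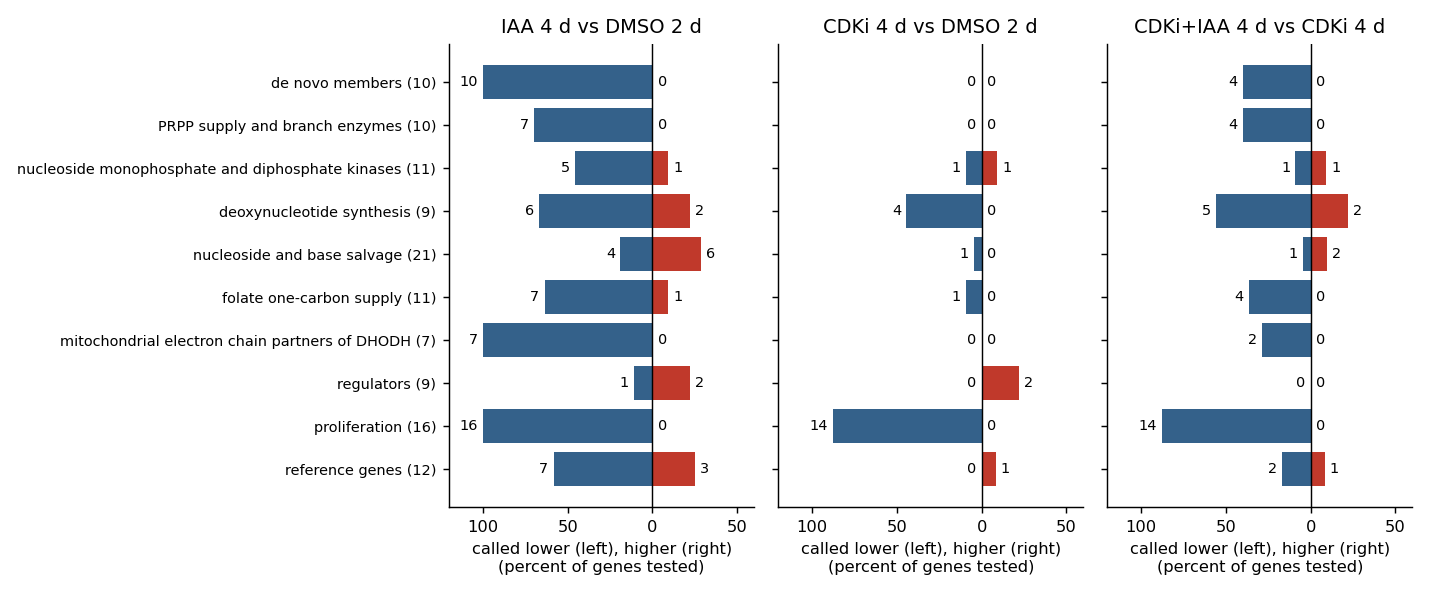
Percent of each list's tested genes (number in brackets) called lower (blue, to the left) or higher (red, to the right) by edgeR in 3 comparisons at 4 days, with the number of genes beside each bar. All 10 pathway members and all 16 proliferation genes fell with IAA, whereas with CDKi alone 0 members and 14 proliferation genes fell.

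MYC was lower than its control at 1 day, a description without a test, and was called lower at 2 days. At 4 and 6 days MYC was not called. It averaged 202 ± 21.0 CPM after 1 day of IAA and 461 ± 17.8 CPM in 1-day DMSO libraries (SD, n = 2 each). At 2 days it averaged 202 ± 10.7 CPM with IAA and 464 ± 29.3 CPM with DMSO (SD, n = 3 each), a log2 change of -1.20 ± 0.24 (edgeR adjusted p = 0.000633). At 4 and 6 days its differences were -0.52 ± 0.23 (adjusted p = 0.0926) and -0.38 ± 0.23 (adjusted p = 0.214) by edgeR, while CAD was called lower at both. Set directly against 2 days of IAA, MYC at 4 days stood at 0.68 ± 0.24 and was not called (edgeR adjusted p = 0.0744). With CDKi alone, against 2-day DMSO, MYC was called higher at 4 days (0.82 ± 0.23, edgeR adjusted p = 0.0298). At 2 days of CDKi it was not called (0.10 ± 0.26, edgeR adjusted p = 0.809). With IAA added to CDKi, against CDKi alone, MYC stood at -0.69 ± 0.23 at 4 days (edgeR adjusted p = 0.0551). At 2 days it stood at -0.68 ± 0.29 (adjusted p = 0.479), so it was called at neither time. CAD stood at -0.66 and -0.68 in these comparisons and was called in both. The courses of MYC and CAD were not tested against each other. Across the 12 degron group means CAD's pattern, compared over 10235 genes, was most like those of SLC39A14 (Pearson r = 0.982), CLUH (0.961), WASHC2C (0.956), ANKLE1 (0.956) and EIF3B (0.955). These coefficients describe 12 means that share libraries and controls. Among the members ADSL ranked 12 with r = 0.940 and PAICS 56 with r = 0.882, whereas PPAT (0.552) and GART (0.483) lay far down the order.

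The CDK4/6 inhibitor arms give the members' levels in cells whose entry into S phase was also targeted by a drug. After 4 days of inhibitor alone 0 of 10 members were called by edgeR against 2-day DMSO (7.69% of all genes were called either way), and 2, CTPS1 and PFAS, had an unadjusted p below 0.05. CAD, CTPS1 and PFAS were lower in each of the 3 clones and had separate ranges, as did 29.3% of all genes. CAD had 194.6, 202.8 and 206.4 CPM with CDKi in clones 1, 7 and 9, a log2 difference of -0.13 ± 0.12, and PAICS differed by -0.02 ± 0.12. CTPS1 stood at -0.41 ± 0.13 (edgeR adjusted p = 0.0557) and PFAS at -0.42 ± 0.14 (adjusted p = 0.0734). In the same libraries 14 of 16 proliferation genes fell (median -0.65). The result depended on the control: against 1-day DMSO 7 members were called lower, among them CTPS1 at -0.91 and PFAS at -1.11, beside 24.8% of all genes. With the 2-day control, the clone as a replicate block called CTPS1 lower (-0.40, edgeR adjusted p = 0.00911), and DESeq2 called 2 of the 10 lower. At 2 days of inhibitor UMPS (0.47 ± 0.17, edgeR adjusted p = 0.0299) and DHODH (0.72 ± 0.19, adjusted p = 0.00409) were higher than 2-day DMSO, where 20.8% of all genes were, but stood at -0.25 and -0.28 against 1-day DMSO, with neither called, and at -0.51 and -0.12 on the log2(TPM + 1) scale in limma. Marker lists moved there too: 3 of 8 tested colon markers were called higher, VIL1 among them, and so were 3 of 6 tested neural markers, NEFL and INA among them. Their levels stayed low: NEFL averaged 1.33 TPM with CDKi and was at 0 in 2-day DMSO, but reached 1.49 TPM in 1-day DMSO, which had no inhibitor. The neural list nevertheless summed to 32.9 to 40.5 TPM with CDKi and 57.4 to 66.7 TPM in 2-day DMSO, but to 32.7 to 37.9 TPM in 1-day DMSO. The colon list summed to 2482 to 2928 TPM with CDKi, 2784 to 2844 TPM in 2-day DMSO and 2059 to 2303 TPM in 1-day DMSO. CDX1 was at 0, and the part of these markers in the result was not tested.

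With IAA added to the inhibitor 4 members fell at 4 days, beside 5.1% of all genes. The count was 1 with limma, 7 with DESeq2 and 9 when the model held the compared groups alone. CAD had 124.6, 125.1 and 131.6 CPM with CDKi plus IAA in clones 1, 7 and 9, all below the 3 CDKi libraries, a log2 change of -0.66 ± 0.12 (edgeR adjusted p = 0.000335). PAICS had 307.0, 289.0 and 253.2 CPM, against 511.6, 462.3 and 486.1 CPM with CDKi, a change of -0.78 ± 0.12 (adjusted p = 5.03e-05 by edgeR). ADSL fell by 0.54 ± 0.15 on the log2 scale (edgeR adjusted p = 0.0202) and CTPS1 by 0.42 ± 0.13 (adjusted p = 0.0357). The other 6 stood between -0.31 (ATIC) and -0.48 (PPAT) with adjusted p-values from 0.057 to 0.182 in edgeR, and 9 of the 10 had separate ranges, as did 31.3% of all genes. At 2 days CAD alone passed, beside 0.117% of all genes: 122.8 and 139.6 CPM with CDKi plus IAA, against 200.7 and 219.0 CPM with CDKi, a change of -0.68 ± 0.14 (edgeR adjusted p = 0.0288). All 10 had separate ranges there, as did 49.1% of all genes with 2 libraries a side. The call on CAD was lost without any 1 of its 4 libraries (adjusted p 0.189 to 0.618), and with the clone as a replicate block PAICS joined it, for 2 calls. The call on CTPS1 was lost without any 1 of 5 of the 6 libraries and that on ADSL without any 1 of 4, so that 2 members remained called without the CDKi library of clone 1 or 7 or the CDKi plus IAA library of clone 7. The IAA response at 4 days was smaller with the inhibitor than without it for CAD, by 0.81 ± 0.16 on the log2 scale (edgeR adjusted p = 0.00481), and for PAICS, by 0.73 ± 0.16 (adjusted p = 0.0098), where 2.19% of all genes differed in that direction. With the clone as a block 4 members did, without the 4-day IAA library of clone 9 there were 5, and without the CDKi plus IAA library of clone 1 there was 1. Shares of all genes with single libraries left out are not given. The arm without inhibitor uses 2-day DMSO as its control, so days in culture differ between the arms. The 2-day difference sets libraries named in hours against libraries named in days. At 2 days edgeR called no gene at all for this difference, although 6 members had an unadjusted p below 0.05 and DESeq2 called 17 genes. CAD then stood at 1.00 ± 0.18 (adjusted p = 0.101), and the block brought it to an adjusted p of 0.0447.

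In the clones labelled MAVS-/- 4 members fell after 4 days of IAA, beside 3.15% of all genes. MAVS RNA averaged 169 ± 20.2 CPM with IAA and 139 ± 27.4 CPM with DMSO in these clones, against 324 ± 14.5 CPM in MAVS-intact 2-day DMSO libraries (SD, n = 3 each), so it was lower but not at 0, and the protein was not measured. CAD had 133.7, 151.7 and 125.8 CPM with IAA in clones 1, 13 and 15, against 212.3, 237.5 and 227.3 CPM with DMSO, and the groups did not overlap. Its log2 change was -0.72 ± 0.12 (edgeR adjusted p = 0.00025). PAICS had 213.2, 272.3 and 211.5 CPM with IAA, against 399.2, 426.6 and 368.7 CPM with DMSO, a log2 change of -0.78 ± 0.12 (edgeR adjusted p = 0.000109). PPAT fell by 0.65 ± 0.18 on the log2 scale (edgeR adjusted p = 0.0202) and PFAS by 0.47 ± 0.14 (adjusted p = 0.0431). The other 6 stood between -0.11 (UMPS) and -0.36 (DHODH), and 4 of 10 had separate ranges, as did 29.6% of all genes. The count depended on clone 13, whose IAA library lay close to its DMSO library for CTPS1 (78.00 and 77.45 CPM) and above it for UMPS (47.69 and 42.21 CPM). Without that IAA library 8 members were called, and without any 1 of 4 others (either library of clone 15, IAA of clone 1 or DMSO of clone 13) 2 were. The shares of all genes called in those fits are not given. Without clone 13 in both arms 4 members were called (CAD, PAICS, PFAS and GART), beside 756 of all genes called either way, against 1488 with it. The IAA response was smaller in MAVS-/- than in MAVS-intact clones for ADSL (by 0.94 ± 0.22, edgeR adjusted p = 0.00951), UMPS (0.77 ± 0.22, adjusted p = 0.0364), CAD (0.75 ± 0.16, adjusted p = 0.00604), CTPS1 (0.75 ± 0.19, adjusted p = 0.0167) and PAICS (0.74 ± 0.16, adjusted p = 0.00693), beside 2.46% of all genes. With only the compared groups in the model 1 of these 5 was called, and without clone 13 in both arms UMPS was lost (edgeR adjusted p = 0.136). The count was 3 without the 2-day DMSO library of clone 9, the MAVS-/- DMSO library of clone 1 or the MAVS-/- IAA library of clone 13. The DMSO libraries themselves differed in level, for example 190.1, 235.3 and 204.7 CPM of GART in MAVS-/- clones after 4 days against 353.3, 356.0 and 336.0 CPM in intact clones after 2 days. The clones and the days in DMSO differ as well as MAVS, and they cannot be told apart.

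In the Cre system, where the Ku80 gene itself is deleted, 8 members fell, in a comparison that called 27.5% of all genes lower. CTPS1 had 62.21 and 60.23 CPM with 4OHT, against 95.61 and 97.09 CPM with EtOH, and its log2 change was -0.65 ± 0.06 (edgeR adjusted p = 7.31e-07). PAICS had 247.6 and 257.3 CPM, against 392.4 and 399.8 CPM, a change of -0.65 ± 0.05 (adjusted p = 1.24e-07 by edgeR). CAD had 190.5 and 191.6 CPM with 4OHT, against 291.1 and 276.4 CPM with EtOH, a change of -0.57 ± 0.05 (adjusted p = 7.42e-07 by edgeR). In these 3 genes both 4OHT libraries were well below both EtOH libraries. PFAS fell by 0.52, PPAT by 0.44, ATIC by 0.42, DHODH by 0.33 and ADSL by 0.23 on the log2 scale, while UMPS stood at 0.11 ± 0.08 (edgeR adjusted p = 0.282) and GART at -0.11 ± 0.05 (adjusted p = 0.0585). All 10 had separate ranges, as did 77.8% of all genes with 2 libraries a side. Cells without Cre lack both the deletion and Cre, so a comparison with them cannot tell Ku80 loss from Cre activity. In cells without Cre, which keep Ku80, CAD was also lower with the drug. It had 256.8 and 268.5 CPM with 4OHT, against 302.9 and 318.8 CPM with EtOH, a change of -0.24 ± 0.05 (edgeR adjusted p = 0.0077). GART also fell there, by 0.18 ± 0.05 on the log2 scale (adjusted p = 0.0281), where 6.44% of all genes were called lower; 0 members were called without the first 4OHT library and 1 without the other. Taking the response of cells without Cre off that of cells with it left 6 members lower, beside 22.4% of all genes: CTPS1 (-0.77 ± 0.08, edgeR adjusted p = 7.35e-06), PAICS (-0.54 ± 0.07, adjusted p = 3.53e-05), PFAS (-0.47 ± 0.10, adjusted p = 0.00188), PPAT (-0.39 ± 0.09, adjusted p = 0.00287), CAD (-0.33 ± 0.07, adjusted p = 0.00256) and ATIC (-0.30 ± 0.08, adjusted p = 0.0105). MYC was higher in these cells after 4OHT, at 547 ± 0.330 CPM against 426 ± 14.6 CPM with EtOH (SD, n = 2 each; 0.36 ± 0.05 on the log2 scale, edgeR adjusted p = 2.04e-05). All 16 proliferation genes fell in these cells (median -2.13), and their part in the members' change was not tested.

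**Figure D4:**
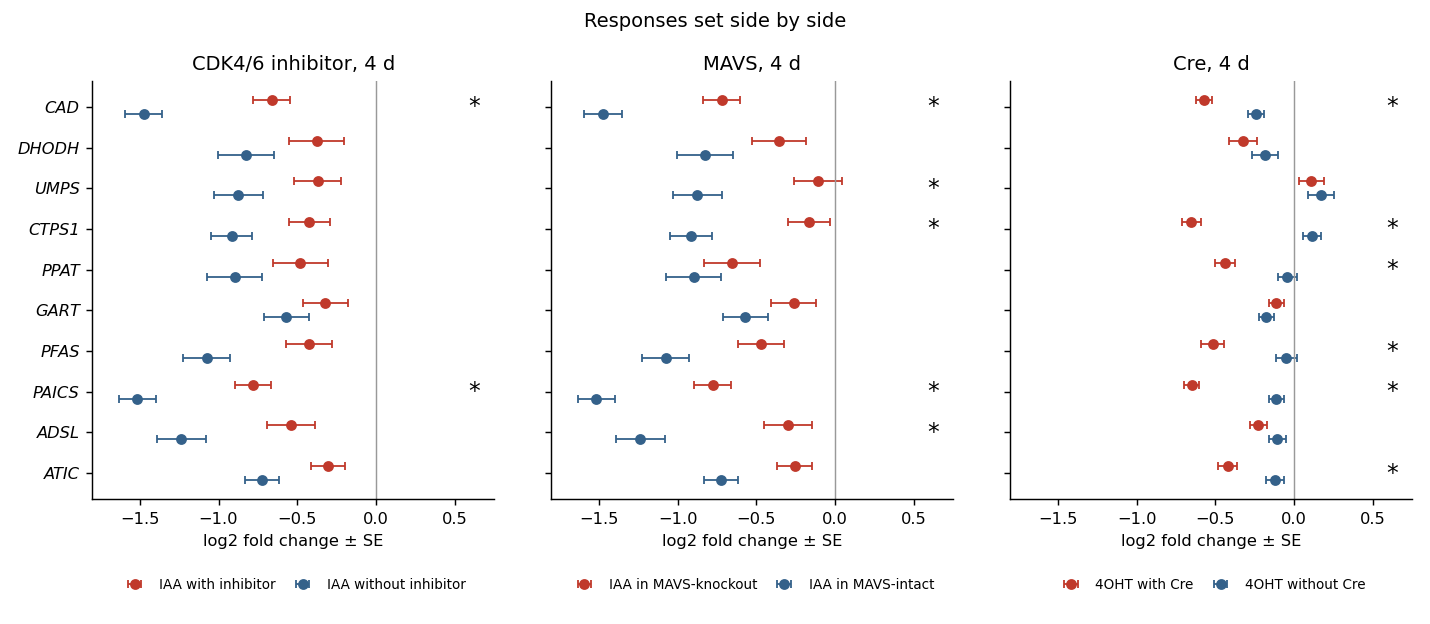
Log2 fold change ± SE of each gene at 4 days in 3 pairs of responses: IAA with and without the CDK4/6 inhibitor, IAA in MAVS-/- and MAVS-intact clones, and 4OHT with and without Cre. An asterisk marks an edgeR adjusted p below 0.05 for the difference between the pair, which CAD and PAICS have in all 3 panels.

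In HEK293 cells 0 of 10 members were called after Ku70 withdrawal by edgeR, where 22% of all genes were called either way. ADSL and ATIC had an unadjusted p below 0.05. CAD had 74.41, 76.22 and 55.86 CPM without doxycycline in clones SB, Sa11 and TI, against 80.17, 79.76 and 88.50 CPM with it. The groups did not overlap, which held for 2 of 10 members and 40.5% of all genes, and the log2 difference was -0.27 ± 0.14 (edgeR adjusted p = 0.202). ATIC, whose enzyme closes the purine ring, had 58.46, 113.6 and 132.5 CPM without doxycycline, against 43.54, 67.87 and 72.80 CPM with it in the same clones. It was higher in each clone, as were UMPS, DHODH, CTPS1, PPAT and ADSL, and the median of the 10 was 0.16. The groups of ATIC overlapped while those of UMPS, higher without doxycycline, did not. For ATIC the log2 difference was 0.73 ± 0.29 (edgeR adjusted p = 0.0996). ADSL had 149.4, 214.3 and 218.7 CPM, against 128.7, 142.7 and 161.5 CPM, a difference of 0.43 ± 0.17 (adjusted p = 0.0945 by edgeR). With the clone as a replicate block ATIC (0.68, adjusted p = 0.000836) and ADSL (0.41, adjusted p = 0.0108) were called higher by edgeR, and DESeq2 called ATIC. Without the doxycycline-withdrawn library of clone SB 3 members were called (DHODH, ADSL and ATIC). Of the 16 proliferation genes 1 rose and 1 fell (median -0.16).

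**Figure D5:**
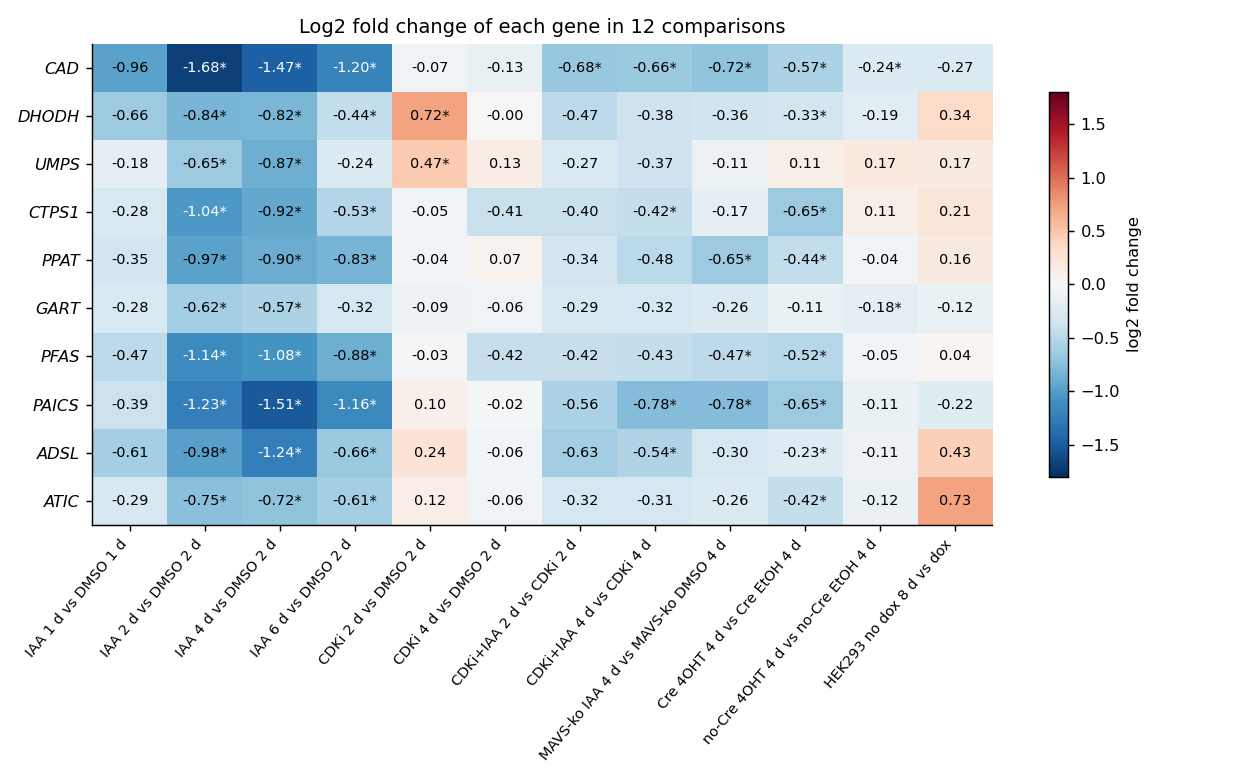
Log2 fold change of each gene (rows) in 12 comparisons (columns), blue for lower and red for higher in the condition named first; an asterisk marks an edgeR adjusted p below 0.05, and the 1-day column carries no test. The 2-day and 4-day IAA columns hold 10 asterisks each, the Cre column 8 and the HEK293 column 0.

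CAD's level differed in steps across the 12 degron groups. It was lowest after 2, 4 and 6 days of IAA, with means of 68.9, 79.2 and 96.1 CPM. Next came CDKi plus IAA at 4 days (127 CPM), IAA at 1 day (131 CPM), CDKi plus IAA at 2 days (131 CPM) and MAVS-/- IAA (137 CPM). Above these stood CDKi alone at 2 and 4 days, with 210 and 201 CPM, and the DMSO groups, with 220 CPM at 2 days, 226 CPM in MAVS-/- clones and 254 CPM at 1 day. Neighbours within each of these 3 steps overlapped, except that 1-day DMSO lay above MAVS-/- DMSO. The 1-day groups and the 2-day CDKi groups are the libraries named in hours, so their places among the others cross that divide. All 19 libraries with IAA were below all 13 without it, which held for 1 of the 10 members, CAD. This is a description, since CAD was chosen for such a pattern, and the share of all genes with this split was not counted.

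Summed over the 10 members, the pathway's RNA per length was 670 ± 17.8, 584 ± 94.4 and 738 ± 40.7 TPM after 2, 4 and 6 days of IAA and 1195 ± 25.3 TPM in 2-day DMSO (SD, n = 3 each). At 4 days it was 767 ± 39.4 TPM with CDKi plus IAA and 947 ± 109 TPM with CDKi, which was itself separate from 2-day DMSO on this scale. In MAVS-/- clones it was 672 ± 84.4 TPM with IAA and 885 ± 39.1 TPM with DMSO (SD, n = 3 each). In Cre cells it was 730 ± 9.76 TPM with 4OHT and 1016 ± 4.31 TPM with EtOH, and in cells without Cre 930 ± 12 TPM with 4OHT and 940 ± 48.2 TPM with EtOH (SD, n = 2 each). As summed CPM the cells without Cre had 1400 ± 3.58 with 4OHT and 1521 ± 20.9 with EtOH, ranges that did not overlap. In HEK293 the sum was 1535 ± 32.7 TPM without doxycycline and 1485 ± 104 TPM with it (SD, n = 3 each), a difference inside the spread between clones.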

How the data were processed

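RNA-seq libraries of HCT116 and HEK293 cells were used. Per the file headers and the labels, the authors deposited estimated counts and TPM per gene; per the submitters' processing notes the tools named are Salmon 1.10.2, kallisto 0.50.0 and DESeq2, with genome build GRCh38 and no roles given. Per the labels, RNA was poly-A enriched for the HCT116 libraries and ribosomal RNA was depleted for HEK293, so levels were not compared between the lines. Estimated counts, as deposited, were rounded to whole numbers and tested with edgeR 4.0.16 in R 4.3.3 (TMM, filterByExpr by group, quasi-likelihood test, Benjamini-Hochberg threshold 0.05 over all genes of a fit). The degron fit held 32 libraries in 12 groups (18877 genes), the Cre fit 8 in 4 (16726) and the HEK293 fit 6 in 2 (15549). SE is the absolute log2 change divided by the square root of F. TPM, as deposited by the authors, served for levels between genes. The members and lists were chosen with earlier results of these data known. Other genes were named by rule: the 4 largest called changes of each list at 4 days of IAA, from which a few are shown, MYC and CTPS2 always, and the 5 genes nearest to CAD by Pearson r of log2 group means among genes of at least 10 CPM. Counts were simulated for IAA at 4 days against DMSO (16310 genes, 200 of them changed). Of changes of log2 size 1, 81% were recovered, and of those of 0.5, 23%, with 5 false calls. The simulation had no differences between clones or between libraries named in hours and in days. Fewer genes changed in it than were called in the data, so its rates need not hold there. No pair of the 38 replicate pairs compared was as close as sampling noise (smallest chi-square per degree of freedom 1.98). Clones pair the degron, MAVS-/- and HEK293 groups, as same-numbered libraries come from 1 clone; correlations of their deviations were -0.113 to 0.467. Replicate numbers of the Cre set only share a number. The labels do not say that libraries of a group came from separate cultures of a clone. The p-values therefore measure the spread between these clones or libraries. That spread is pooled over all groups of a fit and is not that of the compared groups alone. Alternatives were RLE factors, no filter, the clone or replicate block, DESeq2 1.42.0, limma 3.58.1 on log2(TPM + 1), compared groups only, each library left out, 1-day DMSO as control, and, chosen after seeing the data, leaving out the libraries named in hours and clone 13.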

Additional observations from a re-analysis of the deposited data

Results flagged for a closer look

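The results listed here are differences between 2 responses to the same agent that passed edgeR's test of the difference itself (adjusted p below 0.05), and each difference is the first response minus the second on the log2 scale. Between IAA with and without the CDK4/6 inhibitor at 4 days, the difference was 0.81 for CAD and 0.73 for PAICS. Between MAVS-/- and MAVS-intact clones at 4 days of IAA, it was 0.94 for ADSL, 0.77 for UMPS, 0.75 for CAD, 0.75 for CTPS1 and 0.74 for PAICS. A positive value means a smaller fall in the arm named first. Between 4OHT in cells with Cre and in cells without it, the difference was -0.77 for CTPS1, -0.54 for PAICS, -0.47 for PFAS, -0.39 for PPAT, -0.33 for CAD and -0.30 for ATIC. Single libraries were not tested as outliers within their groups, which hold 2 or 3 libraries each.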

How the results depend on the processing

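Numbers below are members called of 10, or log2 changes, in comparisons named by their condition, and the cause of each change was not tested. At 2 and 4 days of IAA all 10 members were called under each alternative except limma, which called 9 at each time, and CAD and PAICS kept their direction and call at 2, 4 and 6 days under each. With RLE factors signs turned in CDKi 4 d (DHODH 0.0063). With no count filter the number called was 1 for CDKi 2 d, 3 for CDKi plus IAA 2 d, 1 for the CDKi difference at 2 d and 1 for HEK293, and signs turned in 4 d against 2 d of IAA (DHODH -0.0046) and CDKi 4 d (DHODH 0.010). With the clone or replicate number as a replicate block the number called was 1 for CDKi 4 d, 2 for CDKi plus IAA 2 d, 1 for the CDKi difference at 2 d, 4 for the CDKi difference at 4 d and 2 for HEK293. With DESeq2 the number called was 2 for IAA 1 d, 2 for CDKi 4 d, 3 for CDKi plus IAA 2 d, 7 for CDKi plus IAA 4 d, 1 for the CDKi difference at 2 d, 4 for the CDKi difference at 4 d and 1 for HEK293, and signs turned in CDKi 4 d (DHODH 0.0064). With limma on log2(TPM + 1) the number called was 0 for IAA 1 d, 2 for 4 d against 2 d of IAA, 5 for CDKi 2 d, 2 for CDKi 4 d, 0 for CDKi plus IAA 2 d, 1 for CDKi plus IAA 4 d, 5 for the CDKi difference at 4 d, 2 for MAVS-/- IAA, 3 for the MAVS difference, 0 for no Cre and 1 for HEK293, and signs turned in IAA 1 d (UMPS 0.13), IAA 6 d (UMPS 0.39), 4 d against 2 d of IAA (UMPS 0.26, DHODH -0.13, PPAT -0.24, GART -0.094, PFAS -1.05, ATIC -0.23), 6 d against 4 d of IAA (CAD -0.012, DHODH -0.11), CDKi 2 d (UMPS -0.51, DHODH -0.12, ADSL -0.24, ATIC -0.44), CDKi 4 d (PPAT -0.17), CDKi plus IAA 2 d (UMPS 0.13), Cre (UMPS -0.28), no Cre (PPAT 0.029, PAICS 0.0030), the Cre difference (GART -0.19) and HEK293 (CAD 0.019). With only the compared groups in the model the number called was 8 for IAA 1 d, 0 for 6 d against 4 d of IAA, 2 for CDKi 4 d, 4 for CDKi plus IAA 2 d, 9 for CDKi plus IAA 4 d, 2 for MAVS-/- IAA, 1 for the MAVS difference and 1 for no Cre, and signs turned in 4 d against 2 d of IAA (DHODH -0.0079, ATIC -0.0018) and CDKi 4 d (DHODH 0.0096). With 1-day DMSO as the control the number called was 7 for CDKi 4 d, and signs turned in CDKi 2 d (UMPS -0.25, DHODH -0.28, PAICS -0.22, ADSL -0.13, ATIC -0.033) and CDKi 4 d (UMPS -0.59, PPAT -0.067). With the libraries named in hours left out the number called was 2 for 6 d against 4 d of IAA and 2 for MAVS-/- IAA, and signs turned in CDKi 4 d (DHODH 0.017, PAICS 0.0011). Leaving out each library in turn gave 0 to 1 for IAA 1 d (1 with all), 0 to 4 for 6 d against 4 d of IAA (4 with all), 0 to 2 for CDKi 2 d (2 with all), 0 to 0 for CDKi plus IAA 2 d (1 with all), 2 to 5 for CDKi plus IAA 4 d (4 with all), 0 to 1 for the CDKi difference at 2 d (0 with all), 1 to 5 for the CDKi difference at 4 d (2 with all), 2 to 8 for MAVS-/- IAA (4 with all), 3 to 6 for the MAVS difference (5 with all), 0 to 3 for no Cre (2 with all) and 0 to 3 for HEK293 (0 with all). It also turned signs of members that were not called, whose log2 values ran over these ranges: CDKi 4 d (DHODH -0.13 to 0.11, PAICS -0.066 to 0.032, ADSL -0.15 to 0.087, PPAT -0.018 to 0.24, GART -0.13 to 0.074), 4 d against 2 d of IAA (DHODH -0.012 to 0.057, ATIC -0.13 to 0.12, PFAS -0.14 to 0.21, PPAT -0.10 to 0.33, GART -0.088 to 0.15), 6 d against 4 d of IAA (PPAT -0.15 to 0.24), the MAVS difference (PPAT -0.032 to 0.42), MAVS-/- IAA (UMPS -0.31 to 0.038), the Cre difference (UMPS -0.18 to 0.042), no Cre (PPAT -0.10 to 0.0045) and HEK293 (PFAS -0.099 to 0.16). Of all members whose sign turned, the report calls UMPS and DHODH in CDKi 2 d and none elsewhere. Counts of genes called over all genes, first as in the report and then, in brackets, under each alternative that moved them by over 1.5 times, were 35 for IAA 1 d (127 no filter, 107 the block, 163 DESeq2, 1607 compared groups only), 3597 for IAA 2 d (9357 1-day DMSO), 6198 for IAA 4 d (3892 compared groups only, 10270 1-day DMSO), 1542 for 4 d against 2 d of IAA (2464 limma, 264 compared groups only, 984 hours libraries out), 2355 for 6 d against 4 d of IAA (1552 limma, 54 compared groups only, 1408 hours libraries out), 6494 for CDKi 2 d (686 1-day DMSO), 1451 for CDKi 4 d (8107 1-day DMSO), 78 for CDKi plus IAA 2 d (250 no filter, 165 the block, 292 DESeq2, 28 limma, 575 compared groups only), 0 for the CDKi difference at 2 d (65 no filter, 4 the block, 17 DESeq2, 2 limma), 886 for the CDKi difference at 4 d (1349 DESeq2, 1416 limma, 438 compared groups only, 443 hours libraries out), 1488 for MAVS-/- IAA (775 compared groups only, 756 clone 13 out), 915 for the MAVS difference (1390 DESeq2, 341 compared groups only, 588 hours libraries out), 2292 for no Cre (1330 DESeq2, 539 limma, 1356 compared groups only) and 3426 for HEK293 (5404 the block, 2280 limma). The replicate block moved no other count of members by over 1.5 times, and the Cre pairs share only a number (correlations 0.0120 and 0.0632). Of RLE factors, no filter, DESeq2 and limma, limma moved the median of all genes by over 0.1, by up to -0.39 in CDKi 2 d. The counts over all genes above leave aside the fits with single libraries left out. Where leaving out 1 of 2 libraries left a single one, its spread was taken from the rest of the model. The 1-day counts are descriptions, since CAD was chosen there. The lowest count of a member in any library was 93 (DHODH).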
